A study of Homo sapiens with 8 samples.

Results

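The proteasome subunit genes are the 48 gene symbols of the deposited count table that begin with PSMA to PSMG followed by a digit, out of 23368 symbols in all. The symbol PSMC3IP, which encodes a recombination protein, was left out. Members were taken by name and not by any measured value, although the family was chosen with earlier results of these data known. Of the 48 members, 44 had enough reads to be tested for differential expression, among 15254 genes tested. All libraries came from HEK293F, a line derived from human embryonic kidney, grown in medium with serum. The groups were 3 libraries with overexpression of MOV10, made by a single transfection of myc-tagged MOV10, 2 libraries with MOV10 knockdown and 3 libraries with an irrelevant siRNA, called the controls here. The knockdown and control cells received siRNA 3 times at intervals of 24 h. MOV10 is an RNA helicase that works with Argonaute proteins, and the comparisons ask how the transcriptome changes with more or less of it. For the overexpression cells the labels state the plasmid transfection and no siRNA. Plasmid and siRNA therefore cannot be told apart from MOV10 when these cells are compared with the controls or with the knockdown cells. A control with plasmid alone was not used here. No label states that replicates came from separate cultures, so p-values reflect how far these libraries varied, and that variation may be technical.

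The proteasome degrades proteins that carry ubiquitin chains. Its 20S core is a barrel of stacked rings: outer rings of alpha subunits form the gate, and inner rings of beta subunits hold the proteolytic sites. The 19S cap consists of a base, with an ATPase ring that unfolds substrates and ubiquitin receptors that capture them, and a lid, which removes the ubiquitin chain. Activators encoded by PSME genes can dock on the core in place of the cap, and the core is assembled with the help of PSMG chaperones. Many subunit genes are known to share control by NFE2L1 and NFE2L2, transcription factors that bind antioxidant response elements.

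Because many, though not all, subunit genes are known to share control through their promoters, promoter sequences were examined. The 250 bases before the transcription start are shown for 5 members that changed in the comparisons below. Sequences are from RefSeq (GRCh38.p14), printed 5′ to 3′ on the strand of the gene, with the most upstream start where there were several. Capitals mark a match to the core of the antioxidant response element, TGACNNNGC, which was searched on both strands. The lid gene PSMD3 (chr17:39980557-39980806, plus strand), the core assembly chaperone PSMG1 (chr21:39183452-39183701, minus strand) and the 19S base gene PSMD2 (chr3:184298991-184299240, plus strand) were lower with overexpression. The activator genes PSME1 (chr14:24135944-24136193, plus strand) and PSME2 (chr14:24146611-24146860, minus strand) were higher.
PSMD3: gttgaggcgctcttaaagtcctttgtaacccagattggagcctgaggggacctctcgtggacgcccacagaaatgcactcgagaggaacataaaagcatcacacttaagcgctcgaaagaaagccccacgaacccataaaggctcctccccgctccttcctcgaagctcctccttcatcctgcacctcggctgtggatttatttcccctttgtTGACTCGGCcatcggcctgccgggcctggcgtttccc
PSMG1: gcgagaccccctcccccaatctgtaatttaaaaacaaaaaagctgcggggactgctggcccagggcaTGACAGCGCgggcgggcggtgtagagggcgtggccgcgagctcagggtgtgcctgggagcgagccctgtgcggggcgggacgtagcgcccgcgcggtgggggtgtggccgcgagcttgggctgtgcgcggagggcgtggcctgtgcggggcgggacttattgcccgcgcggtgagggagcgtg
PSMD2: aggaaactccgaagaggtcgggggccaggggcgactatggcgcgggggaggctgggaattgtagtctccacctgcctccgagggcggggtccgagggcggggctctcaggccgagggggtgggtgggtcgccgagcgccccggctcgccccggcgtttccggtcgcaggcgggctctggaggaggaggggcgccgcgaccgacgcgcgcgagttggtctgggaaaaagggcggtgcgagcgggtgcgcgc
PSME1: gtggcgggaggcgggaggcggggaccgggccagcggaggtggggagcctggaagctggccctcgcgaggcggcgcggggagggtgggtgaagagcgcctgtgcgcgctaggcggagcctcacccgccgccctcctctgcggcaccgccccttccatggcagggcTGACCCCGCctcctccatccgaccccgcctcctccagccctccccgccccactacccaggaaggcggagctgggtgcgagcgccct
PSME2: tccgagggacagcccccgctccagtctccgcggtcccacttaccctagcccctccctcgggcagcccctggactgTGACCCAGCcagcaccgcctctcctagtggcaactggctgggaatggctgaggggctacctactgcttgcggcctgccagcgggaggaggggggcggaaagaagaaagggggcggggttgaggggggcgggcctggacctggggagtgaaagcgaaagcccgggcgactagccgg
The first base of the match lay 37 bases before the start in PSMD3, 183 in PSMG1, 86 in PSME1 and 175 in PSME2. The PSMD2 window held no match. The genes shown were picked by no stated rule, and a match is more common among them than among all members with a promoter, whose shares follow.

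Promoters of 42 of the 48 members were found in the RefSeq table, with 51 start sites. The antioxidant response element core occurred in 13 of these 51 windows (25.5%), against 10.9% of all 35116 windows of that length. By gene, 13 of 42 members (31.0%) had a match, against 13.2% of all genes in the table. Of the members with a promoter, the motif was present in 7 of the 25 that were lower with overexpression, in 2 of the 3 that were higher and in 3 of the 10 that were not called. The CCAAT box, spelled CCAAT and also searched on both strands, occurred in 19 of the 51 windows (37.3%), against 32.0% of all windows. By gene, 19 of 42 members (45.2%) had it, against 37.0% of all genes. It was present in 14 of the 25 members that were lower, in 1 of the 3 that were higher and in 3 of the 10 that were not called. These matches describe letters in the windows and show no binding.

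Total counts per library were 12.7 to 23.4 M with overexpression, 19.4 to 32.8 M with knockdown and 14.96 to 22.7 M in the controls. MOV10 itself had 2970.0, 2915 and 2453 CPM with overexpression, 50.6 and 55.5 CPM with knockdown and 76.8, 76.4 and 91.2 CPM in the controls, where CPM is the number of counts per M on library sizes scaled by the TMM method. Its log2 fold change was 5.10 ± 0.08 (adjusted p = 2.10e-21) with overexpression and -0.62 ± 0.08 (adjusted p = 8.84e-06) with knockdown. Every value after ± on a log2 fold change is a standard error, and every adjusted p comes from the quasi-likelihood test of edgeR, adjusted by Benjamini-Hochberg over all genes tested. Overexpression replicate 3, the shallowest library, stood apart from the other overexpression libraries along the third principal component, which held 6.71% of the variance. All 12 markers of embryonic kidney and HEK293 cells reached 1 CPM on average in the controls. Of the 9 markers of differentiated nephron 2 did, with UMOD and AQP2 at 0 counts in every library, and of the 7 blood markers 2 did, with HBB at 0. The summed blood markers were 5.46 to 6.67 CPM with overexpression, 5.90 to 6.01 CPM with knockdown and 4.55 to 5.21 CPM in the controls. The summed nephron markers, mostly LRP2, were 44.6 to 51.8 CPM with overexpression, 35.5 to 40.7 CPM with knockdown and 32.2 to 34.2 CPM in the controls. The summed HEK293 markers were 1251 to 1320 CPM with overexpression, 1559.8 to 1636 CPM with knockdown and 1376 to 1398 CPM in the controls. Of the 9 fibroblast and endothelial markers 2 reached 1 CPM, and their sum was 62.8 to 70.1 CPM with overexpression, 46.5 to 48.7 CPM with knockdown and 63.3 to 68.4 CPM in the controls. The part of these differences in the results below was not tested.

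In the control cells, most genes of the constitutive proteasome were expressed at high levels, and those of its tissue-restricted forms at low levels or at 0. Levels of different genes are compared here as CPM per kb of exon, with the union of annotated exons as the length, as mean ± SD of the 3 controls. In the beta ring, PSMB1, PSMB7 and PSMB4 were the highest, at 106 ± 1.99, 105 ± 5.74 and 103 ± 1.89 CPM per kb, and these 3 did not differ beyond their spread. PSMB7 carries the trypsin-like site. Next came PSMB5, the chymotrypsin-like subunit, at 88.5 ± 3.14 CPM per kb, and PSMB3, a structural subunit, at 88.4 ± 4.42 CPM per kb, which overlapped. PSMB2, another structural subunit, had 74.2 ± 0.672 CPM per kb and PSMB6, the caspase-like subunit, had 69.4 ± 2.55 CPM per kb. PSMB10, PSMB9 and PSMB8 replace the constitutive catalytic subunits in the immunoproteasome of immune and interferon-treated cells. PSMB10 had 4.13 ± 0.278 CPM per kb, PSMB9 0.417 ± 0.0997 CPM per kb and PSMB8 0.0955 ± 0.0138 CPM per kb.

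Levels also differed within the other classes. In the alpha ring PSMA7 led at 96.1 ± 2.47 CPM per kb, followed by PSMA1 at 66.2 ± 1.51, PSMA3 at 49.05 ± 0.813, PSMA4 at 44.3 ± 0.790, PSMA5 at 22.4 ± 0.742, PSMA2 at 18.6 ± 0.676 and PSMA6 at 9.96 ± 0.217 CPM per kb. Among the ATPases PSMC4 led at 67.5 ± 3.01 CPM per kb and PSMC1 was lowest at 0.768 ± 0.0658 CPM per kb, although both belong to the same ring. GENCODE 29 lists 13 pseudogenes named after PSMC1, and 75.8% of its exon bases lie over exons of another gene on the opposite strand. It also lists 4 pseudogenes of PSMA6, 3 each of PSMA2 and PSMD10, and 2 of PSME2. Exons of other genes, on either strand, cover 34.8% of the exon bases of PSMB10 and 34.6% of those of PSMA2. For PSMD7, PSMA1 and PSMD9 the shares are 30.7%, 24.7% and 22.6%, and further members have smaller overlaps. Counts of these genes are uncertain to the extent that reads were split between copies, strands or overlapping genes, and that part was not tested. The lid ran from 62.1 ± 0.698 CPM per kb for PSMD3 to 14.3 ± 0.556 CPM per kb for PSMD14, the deubiquitinase, which did not differ beyond its spread from PSMD6 at 14.7 ± 0.547 CPM per kb. The base subunits PSMD1, PSMD2 and PSMD4 had 45.4 ± 1.22, 41.6 ± 0.588 and 36.5 ± 1.06 CPM per kb. Of the activators, the nuclear PSME3 had 72.8 ± 1.71 CPM per kb, PSME1 20.3 ± 0.990 and PSME4 19.01 ± 0.341 CPM per kb, while PSME2, the partner of PSME1 in a mixed ring, had 1.88 ± 0.190 CPM per kb. The core assembly genes ran from 42.3 ± 1.03 CPM per kb for PSMG1 to 1.76 ± 0.0654 CPM per kb for PSMG4. These orders depend on the length used: with the longest transcript, PSMB7 was the highest of the beta ring, PSMG3 of the assembly group and PSMD8 of the lid, and PSMD2 the lowest of the base subunits outside the ATPase ring.

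**Figure D1:**
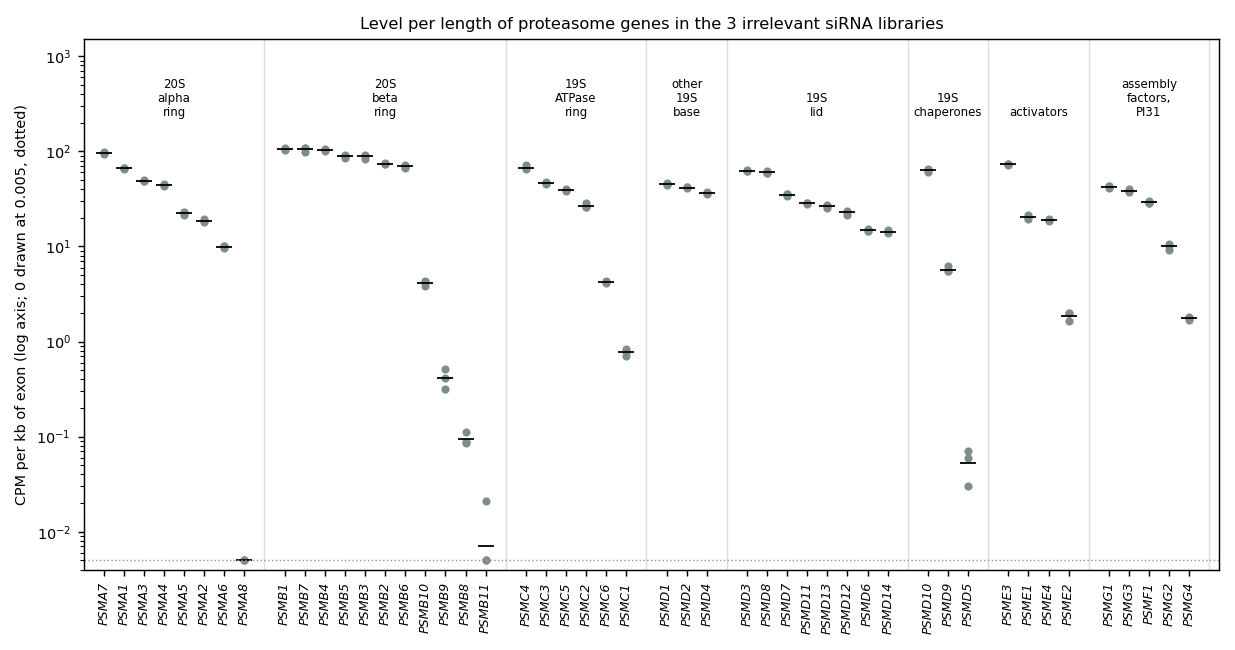
Level per length of all 48 members in the 3 irrelevant siRNA libraries, as CPM per kb of exon on a log axis. Points are libraries, dashes are means, and a value of 0 is drawn at 0.005. Constitutive beta subunits lie between 69.4 and 106 CPM per kb, and the immunoproteasome subunits at or below 4.13.

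Of the 48 members, 4 had too few reads to be tested, by edgeR's filter on low counts. PSMA8, the alpha subunit of testis, had 0 counts in every library, which allows up to 0.0951 CPM in the deepest library and 0.230 CPM in the shallowest, from a limit of 3 counts. PSMB11, the subunit of the thymus proteasome, had 0 to 2 counts. PSMD5, a 19S assembly chaperone, had 1 to 9 counts. PSMB8 had 0.250, 0.358 and 0.460 CPM with overexpression, 0.0951 and 0.213 CPM with knockdown and 0.266, 0.259 and 0.334 CPM in the controls.

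With overexpression, most proteasome genes were lower than in the controls. Of the 44 members tested, 30 were lower (68.2%) and 3 were higher (6.82%), at an adjusted p under 0.05. Over all genes tested, 24.1% were lower and 25.2% were higher. Most members are abundant, and abundant genes were more often lower: of the 7778 genes with a mean of at least 30 CPM over all libraries, 35.4% were lower and 20.3% were higher. Of the 39 members above that level, 29 were lower (74.4%) and 2 were higher (5.13%). The median log2 fold change was -0.20 over the 44 members, with a range of -0.79 to 0.31, and 0.01 over all genes. Leaving out overexpression replicate 3 left the counts at 30 lower and 3 higher, with a median of -0.17, while leaving out overexpression replicate 1 gave 26 lower and 1 higher. In bulk RNA, fewer cells of a type and less RNA per cell cannot be told apart.

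The decrease was also present in the summed level. Members summed to 5304 ± 120.1 CPM with overexpression, 6310.1 ± 173 CPM with knockdown and 6160.0 ± 102 CPM in the controls (SD, n = 3, 2 and 3). Overexpression over control was a ratio of 0.861, and knockdown over control a ratio of 1.02. By class, the ratio of overexpression over control was lowest for the base subunits outside the ATPase ring, at 0.807, and highest for the alpha ring, at 0.893. Members took 0.529% to 0.552% of all counts with overexpression, 0.601% to 0.618% with knockdown and 0.608% to 0.624% in the controls.

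**Figure D2:**
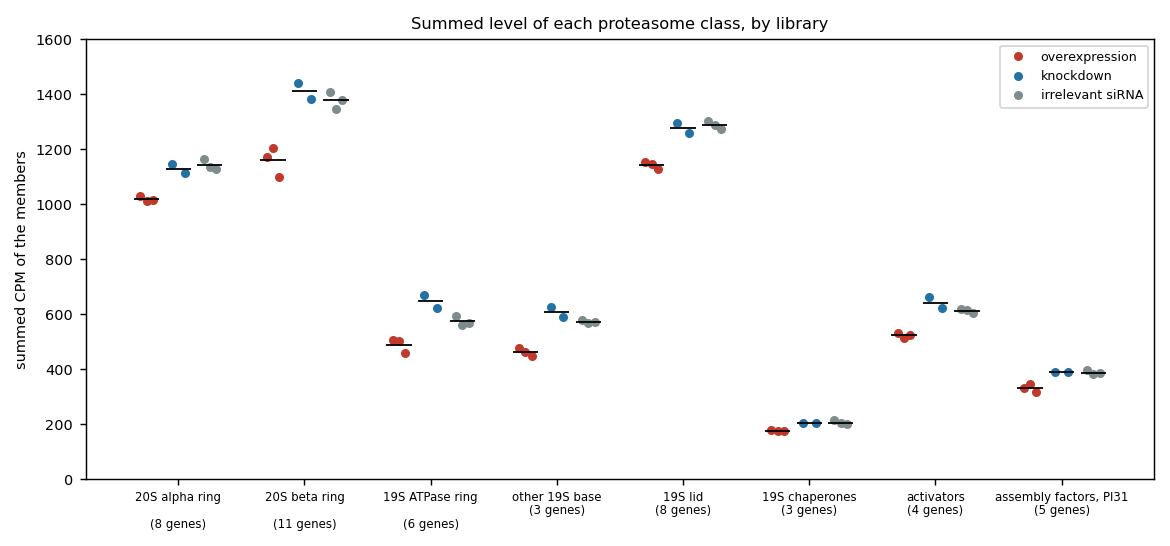
Summed CPM of the members of each class by library, with overexpression (left), knockdown (middle) and irrelevant siRNA (right) in each class. Points are libraries and lines are means. In every class the 3 overexpression libraries lie below all control libraries, and the ATPase ring is the class with the largest ratio of knockdown over control, at 1.13. Sums weigh abundant genes most. In the controls PSME3 alone held 375 of the 613 CPM of the activators, of which PSME1 and PSME2 were higher with overexpression.

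Of the 16 tested members of the 20S core, 13 were lower with overexpression and 3 were not called, with a median log2 fold change of -0.17. Beside this and each class count below stand 24.1% lower and 25.2% higher of all genes. Among genes with at least 30 CPM these shares were 35.4% and 20.3%. Where libraries are said not to overlap, this describes the values behind a call and is no further support for it. In the alpha ring 5 of 7 were lower. PSMA7, an alpha subunit, had 127, 129 and 114 CPM with overexpression, 182 and 165 CPM with knockdown and 173, 164 and 167 CPM in the controls. The overexpression libraries lay below all others, with no overlap, and the log2 fold change was -0.44 ± 0.05 (adjusted p = 1.61e-06). PSMA4 had 287, 278 and 275 CPM with overexpression, 328 and 325 CPM with knockdown and 314, 313 and 304 CPM in the controls. Its overexpression libraries were again the lowest, at -0.15 ± 0.04 (adjusted p = 0.00729). PSMA3, with 143, 133 and 142 CPM with overexpression, 143 and 142 CPM with knockdown and 156, 152 and 151 CPM in the controls, was lower at -0.13 ± 0.05 (adjusted p = 0.0245). Every overexpression library lay below the controls and the knockdown libraries lay close to the overexpression libraries, but the call was lost in 5 of 16 alternative settings, among them those without overexpression replicate 2, control replicate 1 or control replicate 2. PSMA1 had 194, 194 and 215 CPM with overexpression, 191 and 189 CPM with knockdown and 222, 220.3 and 213 CPM in the controls. It was lower at -0.13 ± 0.05 (adjusted p = 0.0384), but overexpression replicate 3 lay within the controls, and the call was lost in 7 of 16 alternative settings, among them library totals as scaling and those without overexpression replicate 1 or 2 or control replicate 1 or 2. PSMA2 was lower at -0.16 ± 0.05 (adjusted p = 0.0119), while PSMA6 had -0.09 ± 0.05 (adjusted p = 0.157) and PSMA5 had -0.02 ± 0.05 (adjusted p = 0.78).

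In the beta ring 8 of 9 tested members were lower, with a median of -0.27, and they included all 3 constitutive catalytic subunits. PSMB5 had 131, 137 and 118 CPM with overexpression, 175 and 172 CPM with knockdown and 159.7, 149.8 and 159 CPM in the controls. Its overexpression libraries were all below the controls, at -0.27 ± 0.05 (adjusted p = 0.000286), and the other catalytic subunits were at -0.28 ± 0.06 (adjusted p = 0.00033) for PSMB6 and -0.29 ± 0.05 (adjusted p = 0.00015) for PSMB7. PSMB2 had 296, 302 and 270.03 CPM with overexpression, 347 and 329 CPM with knockdown and 363, 359.5 and 356 CPM in the controls. The overexpression libraries lay below all others, and the log2 fold change was -0.31 ± 0.05 (adjusted p = 2.04e-05). PSMB3, with 92.1, 94.96 and 87.2 CPM with overexpression, 116 and 113 CPM with knockdown and 109, 98.7 and 105 CPM in the controls, was lower at -0.19 ± 0.05 (adjusted p = 0.00612), a call lost without control replicate 1. PSMB4 was lower at -0.23 ± 0.05 (adjusted p = 0.000762) and PSMB1 at -0.12 ± 0.04 (adjusted p = 0.0341). PSMB10, the inducible counterpart of PSMB7, had the largest decrease of all members. Exons of other genes lie over 34.8% of its exon bases, with 0% on the opposite strand. Its counts are uncertain to that extent, and the part of this overlap in the decrease was not tested. PSMB10 had 4.71, 4.25 and 4.37 CPM with overexpression, 6.97 and 7.81 CPM with knockdown and 7.80, 8.07 and 7.08 CPM in the controls. No overexpression library reached the control or knockdown libraries, and the log2 fold change was -0.79 ± 0.12 (adjusted p = 1.52e-05). PSMB9, the inducible counterpart of PSMB6, had 1.75, 1.52 and 0.920 CPM with overexpression, 0.983 and 1.12 CPM with knockdown and 1.60, 0.983 and 1.27 CPM in the controls. Its groups overlapped, at 0.18 ± 0.25 (adjusted p = 0.572), with few reads behind each value.

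In the 19S cap, 13 of 19 tested members were lower with overexpression and 1 was higher, with a median of -0.22. The share lower was 24.1% of all genes and 35.4% of those with at least 30 CPM. Of the 6 ATPases 4 were lower. PSMC3 had 84.8, 85.4 and 79.4 CPM with overexpression, 122 and 110.02 CPM with knockdown and 107, 103 and 105 CPM in the controls. The overexpression libraries were the lowest of all, at -0.33 ± 0.05 (adjusted p = 3.68e-05). PSMC5 had 159, 154 and 139 CPM with overexpression, 202 and 195 CPM with knockdown and 180.1, 172 and 177 CPM in the controls. PSMC4 had 142, 146 and 126 CPM with overexpression, 194 and 181 CPM with knockdown and 169, 157 and 156 CPM in the controls. In both genes every overexpression library lay below the controls and every knockdown library above them. Their log2 fold changes with overexpression were -0.22 ± 0.05 (adjusted p = 0.00135) for PSMC5 and -0.22 ± 0.06 (adjusted p = 0.00271) for PSMC4. PSMC2 was lower at -0.22 ± 0.06 (adjusted p = 0.00236). PSMC6 had -0.01 ± 0.06 (adjusted p = 0.933). PSMC1, whose counts are uncertain, had -0.11 ± 0.19 (adjusted p = 0.64).

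The large scaffold subunits of the base, PSMD1 and PSMD2, were lower, and the ubiquitin receptor PSMD4 was not called. PSMD2, which also docks ubiquitin-like domains, had 173, 167 and 160.1 CPM with overexpression, 247 and 233 CPM with knockdown and 229.6, 223 and 227 CPM in the controls. It had the smallest adjusted p of the members, with overexpression far below both other groups, at -0.44 ± 0.05 (adjusted p = 2.82e-07). PSMD1 had 194, 185 and 182 CPM with overexpression, 259 and 241 CPM with knockdown and 242, 235 and 229 CPM in the controls. The overexpression libraries were lower without overlap, at -0.33 ± 0.05 (adjusted p = 1.05e-05). PSMD4 had 109.5, 109 and 105 CPM with overexpression, 122 and 116 CPM with knockdown and 109, 108 and 114 CPM in the controls. Its overexpression libraries overlapped the controls, at -0.03 ± 0.05 (adjusted p = 0.595).

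Of the 8 lid subunits 5 were lower and 1 was higher, with a median of -0.15, where 35.4% of genes with at least 30 CPM were lower. PSMD11, a scaffold subunit of the lid, had 158, 158 and 144 CPM with overexpression, 211 and 206 CPM with knockdown and 204, 208 and 202 CPM in the controls. Overexpression was below every other library, at -0.42 ± 0.05 (adjusted p = 7.35e-07). PSMD3, another scaffold subunit, had 247, 257 and 232 CPM with overexpression, 327 and 319 CPM with knockdown and 312, 305 and 308 CPM in the controls. It too was lower without overlap, at -0.33 ± 0.05 (adjusted p = 7.56e-06), and PSMD6 and PSMD8 were lower at -0.22 ± 0.05 (adjusted p = 0.0014) and -0.16 ± 0.06 (adjusted p = 0.0191). PSMD12 had 110.3, 101 and 121 CPM with overexpression, 105 and 105 CPM with knockdown and 124, 126 and 115 CPM in the controls. It was lower at -0.15 ± 0.06 (adjusted p = 0.0472), but overexpression replicate 3 lay among the controls, and the call was lost in 9 of 16 alternative settings, among them DESeq2 and those without overexpression replicate 1 or 2 or control replicate 1 or 2. PSMD14, the deubiquitinase, was the lid subunit that was higher, with 127, 113 and 133 CPM with overexpression, 114 and 111 CPM with knockdown and 111, 114 and 106 CPM in the controls. Overexpression replicate 2 overlapped the controls, the log2 fold change was 0.17 ± 0.06 (adjusted p = 0.0205), and the call was lost without overexpression replicate 1 or without control replicate 3. PSMD7, the partner of PSMD14, had 104, 102 and 105 CPM with overexpression, 111 and 107 CPM with knockdown and 96.9, 93.2 and 98.5 CPM in the controls. All overexpression libraries lay above the controls, at 0.11 ± 0.05 (adjusted p = 0.068), which was called only with library totals as scaling. PSMD13 had 127, 126 and 117 CPM with overexpression, 111 and 111 CPM with knockdown and 129.98, 127 and 122 CPM in the controls. Overexpression and control overlapped, at -0.03 ± 0.05 (adjusted p = 0.65). Of the chaperones of base assembly, PSMD10 had 134, 133 and 134 CPM with overexpression, 158 and 156 CPM with knockdown and 159.6, 155 and 149.96 CPM in the controls. PSMD9 had 43.4, 43.5 and 39.6 CPM with overexpression, 44.5 and 46.8 CPM with knockdown and 53.98, 47.8 and 48.5 CPM in the controls. In both genes the overexpression libraries lay below all controls, and the log2 fold change was -0.22 ± 0.05 (adjusted p = 0.000677) for PSMD10 and -0.25 ± 0.06 (adjusted p = 0.00307) for PSMD9.

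The activators split with overexpression: 2 of 4 were higher and 1 was lower, where 25.2% and 24.1% of all genes were. PSME1 and PSME2, which form a ring known for its role in antigen processing, were the higher ones. PSME1 had 44.2, 46.3 and 42.9 CPM with overexpression, 44.7 and 41.6 CPM with knockdown and 37.9, 34.4 and 35.99 CPM in the controls. Every overexpression library lay above every control, at 0.30 ± 0.06 (adjusted p = 0.000483). PSME2 had 8.29, 8.10 and 8.51 CPM with overexpression, 7.39 and 8.93 CPM with knockdown and 5.94, 7.09 and 7.14 CPM in the controls. Every overexpression library lay above every control, at 0.31 ± 0.11 (adjusted p = 0.0282), while the knockdown libraries lay on both sides of the overexpression libraries, and the call was lost in DESeq2 and without overexpression replicate 1 or control replicate 1. PSME3, which forms a ring of its own in the nucleus, had 290.2, 281 and 266 CPM with overexpression, 414 and 385 CPM with knockdown and 383, 376 and 366 CPM in the controls. The overexpression libraries were well below all others, at -0.42 ± 0.05 (adjusted p = 4.15e-07). The difference between overexpression and control was not called in PSME4, a large activator made of a single chain, at -0.03 ± 0.05 (adjusted p = 0.715).

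Of the 5 core assembly and regulatory genes 3 were lower with overexpression, where 24.1% of all genes and 35.4% of those with at least 30 CPM were. PSMG1, which pairs with PSMG2 to assemble the alpha ring, had 85.2, 86.2 and 86.4 CPM with overexpression, 93.5 and 91.7 CPM with knockdown and 107, 103 and 108 CPM in the controls. Overexpression was the lowest group and the controls the highest, at -0.31 ± 0.05 (adjusted p = 2.78e-05). PSMG3, which pairs with PSMG4, had 61.7, 68.1 and 57.96 CPM with overexpression, 64.1 and 66.6 CPM with knockdown and 78.7, 73.3 and 74.6 CPM in the controls. Its overexpression libraries lay below the controls, at -0.27 ± 0.06 (adjusted p = 0.000959). PSMF1, which binds the core and is known as an inhibitor of it in vitro, had 136, 138 and 119 CPM with overexpression, 187 and 185 CPM with knockdown and 158, 151 and 153 CPM in the controls. Overexpression was below and knockdown above all controls, at -0.23 ± 0.05 (adjusted p = 0.00167) with overexpression. PSMG2 had -0.03 ± 0.07 (adjusted p = 0.696) and PSMG4 had 0.07 ± 0.08 (adjusted p = 0.457), neither called.

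**Figure D3:**
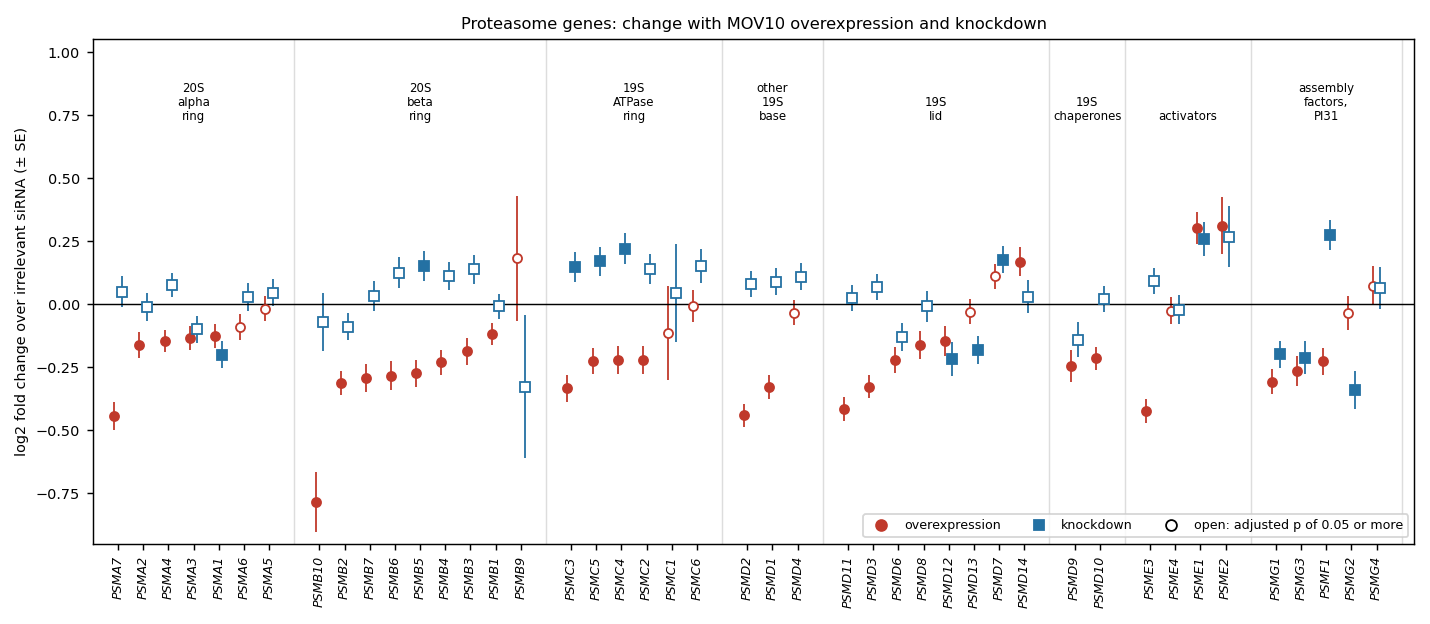
Log2 fold change of each of the 44 tested members over irrelevant siRNA, with overexpression as circles and knockdown as squares, bars showing the standard error and open symbols an adjusted p of 0.05 or more. Within each class genes run from the lowest to the highest value with overexpression, from -0.79 (PSMB10) to 0.31 (PSME2), while 31 of the 44 knockdown values are open symbols.

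With knockdown, few members changed, in both directions. Of the 44 members 6 were lower (13.6%) and 7 were higher (15.9%), with a median log2 fold change of 0.05 and a range of -0.34 to 0.27. Over all genes, 19.1% were lower and 19.9% were higher. Of the genes with at least 30 CPM, 16.4% were lower and 27.0% were higher, against 6 (15.4%) and 7 (17.9%) of the 39 members above that level. These shares are close to or below the background, so the counts with knockdown are no result about the members as a group. The balance of directions depended on the scaling: with library totals in place of TMM factors, 10 members were lower and 3 higher. A fit of the compared groups alone gave 10 lower and 14 higher. The counts were 2 lower and 1 higher without knockdown replicate 2, and 2 lower and 7 higher without knockdown replicate 3. Without control replicates 1, 2 and 3 in turn, they were 3, 5 and 6 lower and 6, 3 and 4 higher.

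The members that were higher with knockdown included 3 of the 6 ATPases and 1 of the 3 constitutive catalytic subunits. The share higher was 19.9% of all genes and 27.0% of those with at least 30 CPM. With so few genes per class, these counts are no result about a class. PSMC4 was higher at 0.22 ± 0.06 (adjusted p = 0.00771), a call lost without knockdown replicate 2. PSMC5 was at 0.17 ± 0.06 (adjusted p = 0.023) and lost the call in 5 of 15 alternative settings, among them those without knockdown replicate 2 or control replicate 2 or 3. PSMC3, at 0.15 ± 0.06 (adjusted p = 0.0493), and PSMB5, at 0.15 ± 0.06 (adjusted p = 0.0486), lost it in 11 of 15 settings each, among them DESeq2 and those without knockdown replicate 2 or any 1 control, and for PSMB5 without knockdown replicate 3. Both knockdown libraries lay above every control in all 4 genes. The genes were picked by calls on these same libraries, so this separation is no further support. The core regulator PSMF1 had the largest increase, at 0.27 ± 0.06 (adjusted p = 0.000988), and kept its call in every alternative run. Its knockdown libraries, at 187 and 185 CPM, stood well above its controls, at 158, 151 and 153 CPM. The lid subunit PSMD7 was higher at 0.18 ± 0.05 (adjusted p = 0.0125), a call lost with library totals as scaling and without knockdown replicate 2 or control replicate 2. PSME1 was higher at 0.26 ± 0.07 (adjusted p = 0.005), but not without knockdown replicate 2. PSME2 had 0.27 ± 0.12 (adjusted p = 0.0873).

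The members that were lower with knockdown included 3 of the 4 PSMG assembly chaperones, a class too small for a result about it. The share lower was 19.1% of all genes and 16.4% of those with at least 30 CPM. PSMG2 had 31.6, 32.8 and 34.8 CPM with overexpression, 26.3 and 27.1 CPM with knockdown and 34.3, 35.6 and 30.98 CPM in the controls. Both knockdown libraries lay below all others and overexpression overlapped the controls, with a log2 fold change of -0.34 ± 0.08 (adjusted p = 0.00134) for knockdown. Its partner PSMG1 was lower at -0.20 ± 0.05 (adjusted p = 0.00565) and PSMG3 at -0.21 ± 0.07 (adjusted p = 0.0139), while PSMG4, with 17.9, 20.5 and 19.3 CPM with overexpression, 18.7 and 19.5 CPM with knockdown and 17.5, 18.9 and 18.4 CPM in the controls, was at 0.06 ± 0.08 (adjusted p = 0.586) with overlapping groups. The lid subunits PSMD12 and PSMD13 were lower at -0.22 ± 0.07 (adjusted p = 0.0125) and -0.18 ± 0.06 (adjusted p = 0.0137), and the alpha subunit PSMA1 at -0.20 ± 0.05 (adjusted p = 0.0063). The calls of PSMA1, PSMD12 and PSMD13 were lost when knockdown replicate 2 or knockdown replicate 3 was left out, those of PSMD12 and PSMD13 also without control replicate 1, and that of PSMD12 without control replicate 2. PSMG1 lost its call without knockdown replicate 3, and PSMG3 without knockdown replicate 2 or control replicate 1, while PSMG2 kept it in every alternative run. Of the 30 members that were lower with overexpression, 5 were called higher with knockdown, 4 were called lower and 21 were not called. The most decreased with overexpression were among those not called: the knockdown log2 fold changes were -0.07 for PSMB10, 0.05 for PSMA7, 0.08 for PSMD2, 0.09 for PSME3 and 0.02 for PSMD11. The next most decreased, PSMC3, was called higher with knockdown. PSMB2 had -0.09, PSMB3 0.14, PSMA4 0.07, PSMA3 -0.10, PSMD1 0.09, PSMD3 0.07, PSMD9 -0.14 and PSMD10 0.02 with knockdown, none of them called. PSMD4, which was not called with overexpression, had 0.11 with knockdown and was not called there either.

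**Figure D4:**
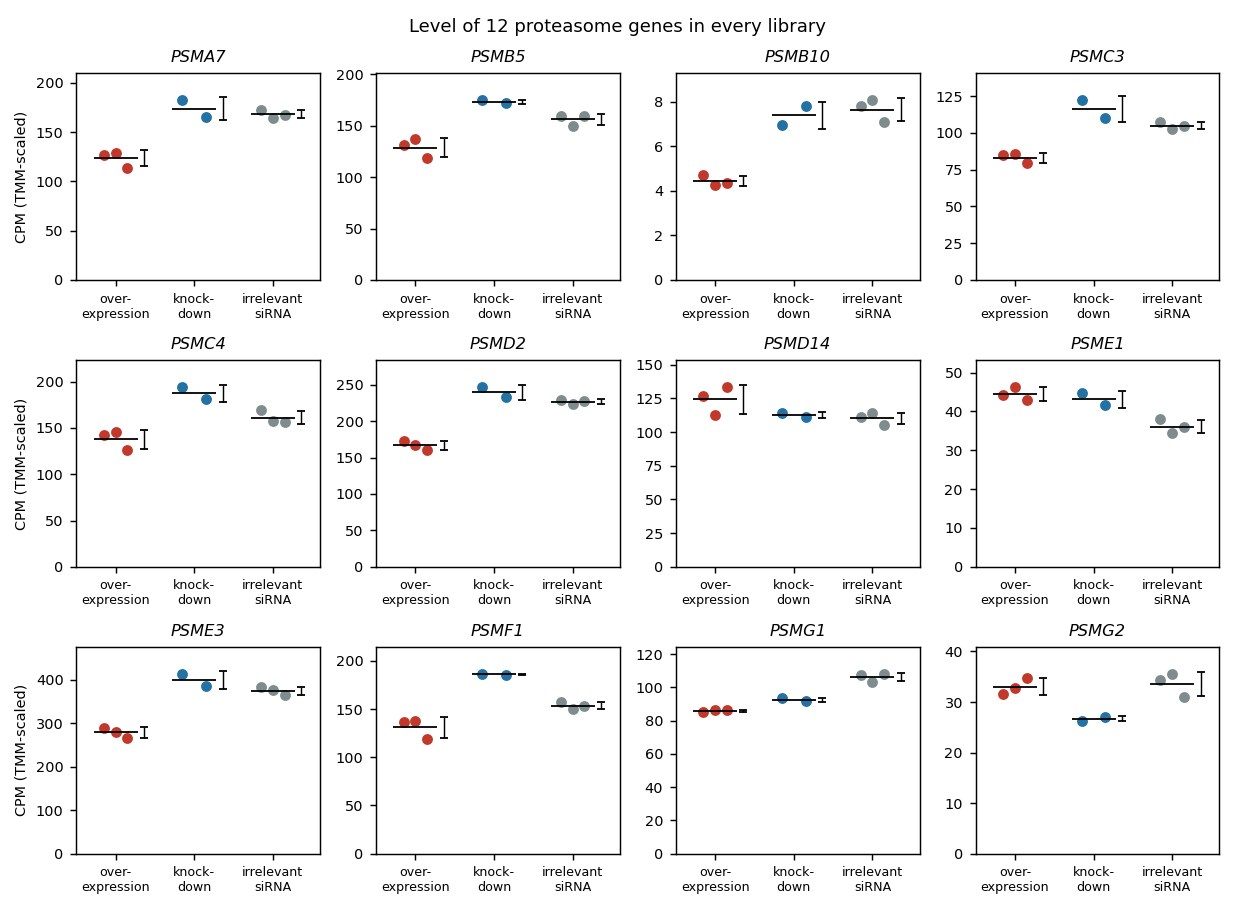
CPM of 12 members in every library, with overexpression, knockdown and irrelevant siRNA from left to right in each panel. Points are libraries, lines are means and bars beside them are SDs. PSMB10 is between 4.25 and 4.71 CPM with overexpression and at least 6.97 CPM elsewhere, and PSMG2 is lowest with knockdown.

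Overexpression was also compared with knockdown directly, without the controls that the other comparisons share. Plasmid and siRNA cannot be told apart from MOV10 here either. The log2 difference equals the overexpression effect less the knockdown effect on the same libraries, so it is no separate support for the decrease with overexpression. Of the 44 members 23 were lower with overexpression than with knockdown and 2 were higher, where 28.1% and 29.3% of all genes were, and the median log2 difference was -0.15 against 0.02 over all genes. Shares among abundant genes were not computed for this comparison. With library totals as scaling, 20 members were lower and 5 were higher and the median was -0.068. The number higher was 1 without overexpression replicate 1, knockdown replicate 2 or knockdown replicate 3. By class, 3 of 7 alpha subunits, 7 of 9 beta subunits, 4 of 6 ATPases, all 3 other base subunits and 3 of 8 lid subunits were lower. Of the base subunits, PSMD4 was at -0.14 ± 0.05 (adjusted p = 0.0298), a call lost in 6 of 15 alternative settings, among them library totals as scaling, the fit of the compared groups alone and those without knockdown replicate 2 or overexpression replicate 1. PSME3 differed by -0.52 ± 0.05 (adjusted p = 6.73e-08) and PSMD2 by -0.52 ± 0.05 (adjusted p = 5.99e-08). PSMF1 differed by -0.50 ± 0.06 (adjusted p = 5.53e-07), and the ATPases PSMC3, PSMC4 and PSMC5 by -0.48 ± 0.06 (adjusted p = 8.49e-07), -0.44 ± 0.06 (adjusted p = 4.64e-06) and -0.39 ± 0.06 (adjusted p = 7.47e-06). PSMA7 was at -0.49 ± 0.06 (adjusted p = 8.12e-07), PSMD11 at -0.44 ± 0.05 (adjusted p = 6.80e-07) and PSMB10 at -0.72 ± 0.12 (adjusted p = 6.00e-05). The catalytic PSMB5 was at -0.42 ± 0.06 (adjusted p = 4.39e-06). The members that were higher with overexpression than with knockdown were PSMG2, at 0.31 ± 0.08 (adjusted p = 0.00179), and PSMD13, at 0.15 ± 0.06 (adjusted p = 0.0251), a call lost in 6 of 15 alternative settings, among them those without overexpression replicate 1, knockdown replicate 2 or knockdown replicate 3. PSME1 differed by 0.04 ± 0.07 (adjusted p = 0.601), PSMA1 by 0.07 ± 0.05 (adjusted p = 0.252) and PSMG1 by -0.11 ± 0.05 (adjusted p = 0.0884), none of which was called.

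Genes that act with the proteasome but carry no PSM name were described from 5 lists, whose counts are set beside the shares of all genes given above: 24.1% lower and 25.2% higher with overexpression, and 19.1% lower and 19.9% higher with knockdown. Among genes with a mean of at least 30 CPM, 35.4% were lower and 20.3% higher with overexpression, and 16.4% lower and 27.0% higher with knockdown. Of 10 other proteins of the particle or bound to it, 4 were lower (40%) and 3 were higher (30%) with overexpression, and 3 were higher (30%) and 7 not called with knockdown. ADRM1, a ubiquitin receptor held in the base by PSMD1, was at -0.50 ± 0.07 (adjusted p = 4.27e-06) with overexpression. The proteasome-bound ligase UBE3C was at -0.36 ± 0.04 (adjusted p = 1.09e-06), the scaffold KIAA0368 (ECM29) at -0.21 ± 0.04 (adjusted p = 0.000506) and the deubiquitinase USP14 at -0.20 ± 0.05 (adjusted p = 0.00209). The 3 that were higher with overexpression were PAAF1 at 0.26 ± 0.06 (adjusted p = 0.00249), UCHL5 at 0.20 ± 0.07 (adjusted p = 0.0181) and AKIRIN2 at 0.19 ± 0.05 (adjusted p = 0.00333). With knockdown, KIAA0368 was at 0.17 ± 0.05 (adjusted p = 0.0108), AKIRIN2, which is needed for nuclear import of proteasomes, at 0.24 ± 0.05 (adjusted p = 0.00143) and TXNL1, a redox protein of the cap, at 0.17 ± 0.06 (adjusted p = 0.0192).

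Of 11 genes for transcription factors and other regulators of subunit genes, 3 were lower and 3 were higher with overexpression (27.3% each, near the 24.1% and 25.2% of all genes), and 1 was lower (9.09%) and 4 were higher (36.4%) with knockdown, against 19.1% and 19.9% of all genes. NFE2L1, the factor best known for raising subunit genes when proteasomes are inhibited, had 0.05 ± 0.04 (adjusted p = 0.348) with overexpression and was higher with knockdown at 0.16 ± 0.05 (adjusted p = 0.0136). Its relative NFE2L3 had the largest change of the list, at 1.00 ± 0.09 (adjusted p = 3.68e-08) with overexpression and 0.37 ± 0.10 (adjusted p = 0.00651) with knockdown. KEAP1, the adaptor that targets NFE2L2 for degradation, was lower with overexpression at -0.51 ± 0.06 (adjusted p = 8.89e-07). MAFG, a dimer partner of these factors, was lower in both comparisons, at -0.35 (adjusted p = 1.68e-05) with overexpression and -0.30 (adjusted p = 0.000318) with knockdown, and BACH1, a repressor at the same elements, was higher in both, at 0.31 (adjusted p = 0.000248) with overexpression and 0.33 (adjusted p = 0.000598) with knockdown. Of 8 oxidative stress targets of NFE2L2, 4 were lower (50%) and 2 were higher (25%) with overexpression, against 24.1% and 25.2% of all genes, and 3 were lower (37.5%) and 2 were higher (25%) with knockdown, against 19.1% and 19.9%. NQO1 was at -0.55 ± 0.14 (adjusted p = 0.00253) and TXNRD1 at -0.21 ± 0.05 (adjusted p = 0.00119) with overexpression. The cystine transporter gene SLC7A11 was at 0.44 ± 0.08 (adjusted p = 9.33e-05) with overexpression and -0.59 ± 0.09 (adjusted p = 3.02e-05) with knockdown, and the haem oxygenase gene HMOX1 was higher in both comparisons, at 0.30 (adjusted p = 0.00292) with overexpression and 0.50 (adjusted p = 6.78e-05) with knockdown. SRXN1 was at -0.43 ± 0.07 (adjusted p = 5.79e-05) and GCLC at 0.26 ± 0.06 (adjusted p = 0.00135) with knockdown.

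Of 19 genes for ubiquitin, its activating enzyme and delivery to the proteasome, 8 were lower (42.1%) and 4 were higher (21.1%) with overexpression, against 24.1% and 25.2% of all genes. Most of these genes were above 30 CPM, and of all genes at or above that level 35.4% were lower and 20.3% were higher. The counts with overexpression are near those shares. With knockdown 1 was lower (5.26%) and 4 were higher (21.1%), against 19.1% and 19.9%, so these shares are near or below those of all genes. VCP, the segregase that pulls substrates from complexes and membranes, was at -0.34 ± 0.04 (adjusted p = 3.27e-06) with overexpression and its cofactor UFD1L at -0.44 ± 0.06 (adjusted p = 6.49e-06). FAF2, another VCP cofactor, was at -0.24 ± 0.04 (adjusted p = 0.000157) with overexpression and 0.32 ± 0.05 (adjusted p = 3.37e-05) with knockdown. The activating enzyme UBA1 was at 0.27 ± 0.06 (adjusted p = 0.00179) with knockdown.

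Of 11 genes of class I antigen presentation, which uses peptides made by proteasomes, 6 were higher (54.5%) and 5 not called with overexpression, where 25.2% of all genes were higher. With knockdown 1 was lower (9.09%) and 6 were higher (54.5%), against 19.1% and 19.9% of all genes. HLA-B was at 0.53 ± 0.05 (adjusted p = 1.32e-07) with overexpression and 0.53 ± 0.06 (adjusted p = 6.01e-07) with knockdown. B2M, the light chain, was at 0.24 ± 0.05 (adjusted p = 0.00044) with overexpression and 0.41 ± 0.05 (adjusted p = 4.72e-06) with knockdown. HLA-C was at 0.25 ± 0.05 (adjusted p = 0.000629) with overexpression and 0.52 ± 0.06 (adjusted p = 9.15e-07) with knockdown. Reads of these HLA genes may be split among near-identical copies, so their separate values are uncertain.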

How the data were processed

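RNA was extracted with Trizol and stranded TruSeq libraries were made from total RNA, per the labels' protocols. The deposited values are read counts per gene symbol, not normalized. Per the submitters' processing notes, the authors used TopHat2 2.0.8, HTSeq 0.5.3p9 and edgeR, with CASAVA 1.8.2, SAMtools 0.1.18 and Trimmomatic 0.22, on hg19. Whether reads were counted by strand, and how multiply aligned reads were treated, is not given in the sources used here. Groups and replicate numbers were taken from the titles.

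The counts were analysed in R 4.3.3 with edgeR 4.0.16: filterByExpr (minimum count 10, minimum total 15), TMM factors, glmQLFit and a two-sided quasi-likelihood F test with 1 mean per group fitted to all 8 libraries together, adjusted by Benjamini-Hochberg over 15254 genes and called under 0.05. The common biological coefficient of variation was 4.49%. The script was tested on simulated data. Replicates differed by more than sampling noise in every pair, with a chi-square per gene of 1.87 to 8.01. Exon lengths came from GENCODE 29, in which all 48 symbols matched. That annotation belongs to another build than the counts, and promoters came from a RefSeq table of GRCh38.p14, so neither was used to place counts. A limit of 3 counts was used for genes at 0, and it covers counting error only.

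The members and lists were chosen with earlier results of these data known. Values in every library are given for the 2 members of each class with the smallest adjusted p in each comparison with control and for members called in opposite directions or against most of the called members, and pathway genes are up to 4 called members per list and comparison. Some genes that this rule selects are not reported here. Genes outside this rule (PSMB8, PSMB9, PSMG4, and others given by fold change alone) were chosen after their values were seen. Alternatives were other scalings, filters, tools (DESeq2 1.42.0, limma-voom in limma 3.58.1), samples and thresholds, a replicate block and leaving out each library.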

Additional observations from a re-analysis of the deposited data

How the results depend on the processing

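For the 44 proteasome genes tested, the main counts were 30 lower and 3 higher with overexpression, 6 and 7 with knockdown, and 23 and 2 for overexpression against knockdown. With library totals in place of TMM factors they were 25 and 4 with overexpression, 10 and 3 with knockdown, and 20 and 5 for overexpression against knockdown, whose median became -0.068. Under that scaling, of all genes called, 60.1% against 51.1% with TMM factors were higher with overexpression, 39.5% against 51.1% with knockdown, and 65.5% against 51.0% for overexpression against knockdown. The members' median with overexpression, less that of all genes, was -0.22 under both scalings. A change of scaling shifts all genes of a comparison nearly alike, so this difference could hardly change and is no further support. A fit of the compared groups alone gave 10 lower and 14 higher with knockdown and 1 higher for overexpression against knockdown. At an adjusted p under 0.01 there were 24 lower and 1 higher with overexpression, 3 and 3 with knockdown, and 1 higher for overexpression against knockdown. Leaving out 1 library in turn gave 24 to 30 lower and 1 to 3 higher with overexpression (median -0.22 to -0.17), 2 to 6 lower and 1 to 7 higher with knockdown (median 0.01 to 0.08), and 20 to 25 lower and 1 to 3 higher for overexpression against knockdown (median -0.20 to -0.13). No label states that same-numbered libraries shared a batch. The correlation of their deviations from the group means over 7 pairs lay between -0.31 and 0.21. With 2 or 3 libraries per group these deviations constrain each other, so the values cannot show whether a batch was shared. With a replicate block, the counts were 27 and 3 with overexpression, 5 and 5 with knockdown, and 21 and 1 for overexpression against knockdown. Over the alternatives run for single genes, 1230 of 1334 values kept their call or lack of one, 90 lost a call and 14 gained one. The sign changed in 18 values, none of them called, 9 of these with library totals, and their main log2 values were at most 0.070 in size. The cause of these changes was not tested. Where leaving out a library left 1 knockdown library, that library was assumed to vary like the other groups. Few or no reads limited what could be said of PSMB9, PSMB8, PSMB11, PSMD5 and PSMA8, and the reason for so few reads was not tested. The levels per length of genes with pseudogenes or overlapping exons are uncertain.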
